A study of Mus musculus with 24 samples.

Results

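The autophagy machinery was followed as 40 mouse genes: the 18 genes whose symbols begin with Atg and a digit, and named genes for its kinases, lipid and ubiquitin-like conjugation factors, cargo receptors and lysosomal partners. A probe set annotated to a single symbol was held for 39 of them, among 19938 genes with such a probe set, and Optn was not analysed here. Each gene was read by its probe set with the highest mean over all 24 arrays. The deposited data are log2 levels, on which a difference of 1 is a factor of 2, and were measured in liver RNA with the Affymetrix Mouse Gene 1.0 ST array. All mice were males aged 24 weeks, when alb-SREBP-1a mice have a fatty liver and obesity.

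There were 8 mice of each genotype, on standard chow, with 1 array per mouse. The alb-SREBP-1a∆P mice carry a C57Bl6-background transgene in which the albumin promoter, active in hepatocytes, drives the HA-tagged N-terminal domain of human SREBP-1a with its MAPK phosphorylation sites mutated. The alb-SREBP-1a mice carry the same domain, promoter and tag with those sites intact. The C57Bl6 mice carry no transgene. SREBP-1a is a transcription factor of fatty acid and cholesterol synthesis. The transgene acts in hepatocytes, whereas whole liver was measured, so that fewer cells of a type and less RNA per cell cannot be told apart.

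Macroautophagy encloses a portion of cytoplasm in a double membrane, the autophagosome, and delivers it to the lysosome for digestion. The ULK kinase complex starts the process, a class III PI3 kinase complex around Beclin 1 marks the membrane with PI3P, and ubiquitin-like conjugation attaches ATG8 proteins such as LC3 to the growing membrane. In liver the pathway supplies amino acids in fasting and also feeds lipid droplets to lysosomes, a route called lipophagy. TFEB is a transcription factor for many of its genes, and mTORC1 holds both TFEB and the ULK complex in check when nutrients are plentiful.

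The genotypes differed in the spread of their arrays as well as in single genes. The standard deviation of the log2 levels on an array was 2.02 to 2.09 in alb-SREBP-1a∆P, 2.14 to 2.23 in alb-SREBP-1a and 2.18 to 2.25 in C57Bl6. In alb-SREBP-1a∆P arrays dim probe sets lay higher and bright ones lower than in the other genotypes, and all 39 autophagy genes fall in the upper 5 deciles of brightness. Their counts are for this reason set beside those of all genes and of the 11514 genes in deciles 6 to 10. On the first principal component alb-SREBP-1a∆P replicate 4 scored 15.7, while the other 7 arrays of its genotype scored 55.0 to 90.3. This array, and alb-SREBP-1a replicates 1 and 2, which an earlier look at these data had set apart, were each left out as an alternative.

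In alb-SREBP-1a∆P liver many of the autophagy genes were lower than in C57Bl6 liver, with a small group of genes moving the other way. By limma with Benjamini-Hochberg adjustment over 35556 probe sets, 20 of the 39 fell, 3 rose and 16 did not pass (14 and 5 fell and rose after quantile normalization, 26 and 3 after centring, 14 and 7 with cyclic loess). Among all 19938 genes 25.9% fell and 25.2% rose, and among genes in deciles 6 to 10 43.3% fell and 10.7% rose. The median log2 fold change of the 39 was −0.22, against −0.18 for genes in those deciles and 0.06 for all genes. In 11 genes each of the 8 alb-SREBP-1a∆P arrays was below every C57Bl6 array, as in 8.92% of all genes and 15.3% of those in deciles 6 to 10. In 3 all lay above (3.48% and 1.88%). Most of the 39 lie in deciles 8 to 10, where 53.5%, 59.3% and 56.8% of genes fell, with medians of −0.28, −0.32 and −0.27. The share of the set that fell, 51.3%, and its median thus did not exceed those of genes in these deciles.

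In alb-SREBP-1a liver few of these genes differed from C57Bl6. The same test called 4 higher and 5 lower, while 30 did not pass, and the median was 0.03. Over all genes 6.26% rose and 4.4% fell, and in deciles 6 to 10 9.5% rose and 7.01% fell. All 8 alb-SREBP-1a arrays lay above every C57Bl6 array in 3 genes (1.76% of all genes and 2.94% of those in deciles 6 to 10) and below in 0 (1.16% and 1.99%).

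Set directly against alb-SREBP-1a, alb-SREBP-1a∆P liver had 20 of the 39 genes lower and 1 higher, with a median of −0.21. The number lower was 10 after quantile normalization, 33 after centring and 8 with cyclic loess. Of all genes 28.4% fell and 22.2% rose, and of those in deciles 6 to 10 47.6% fell and 8.94% rose, with a median of −0.22. In 6 genes each of the 8 alb-SREBP-1a∆P arrays was below the whole alb-SREBP-1a range, as in 5.86% of all genes and 10% of those in deciles 6 to 10, and in 0 all lay above (1.72% and 0.851%). The comparisons share arrays, since each genotype enters a pair of them. The genes that fell in alb-SREBP-1a∆P against both other genotypes numbered 18, and the share of all genes that did so was not counted.

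**Figure D1:**
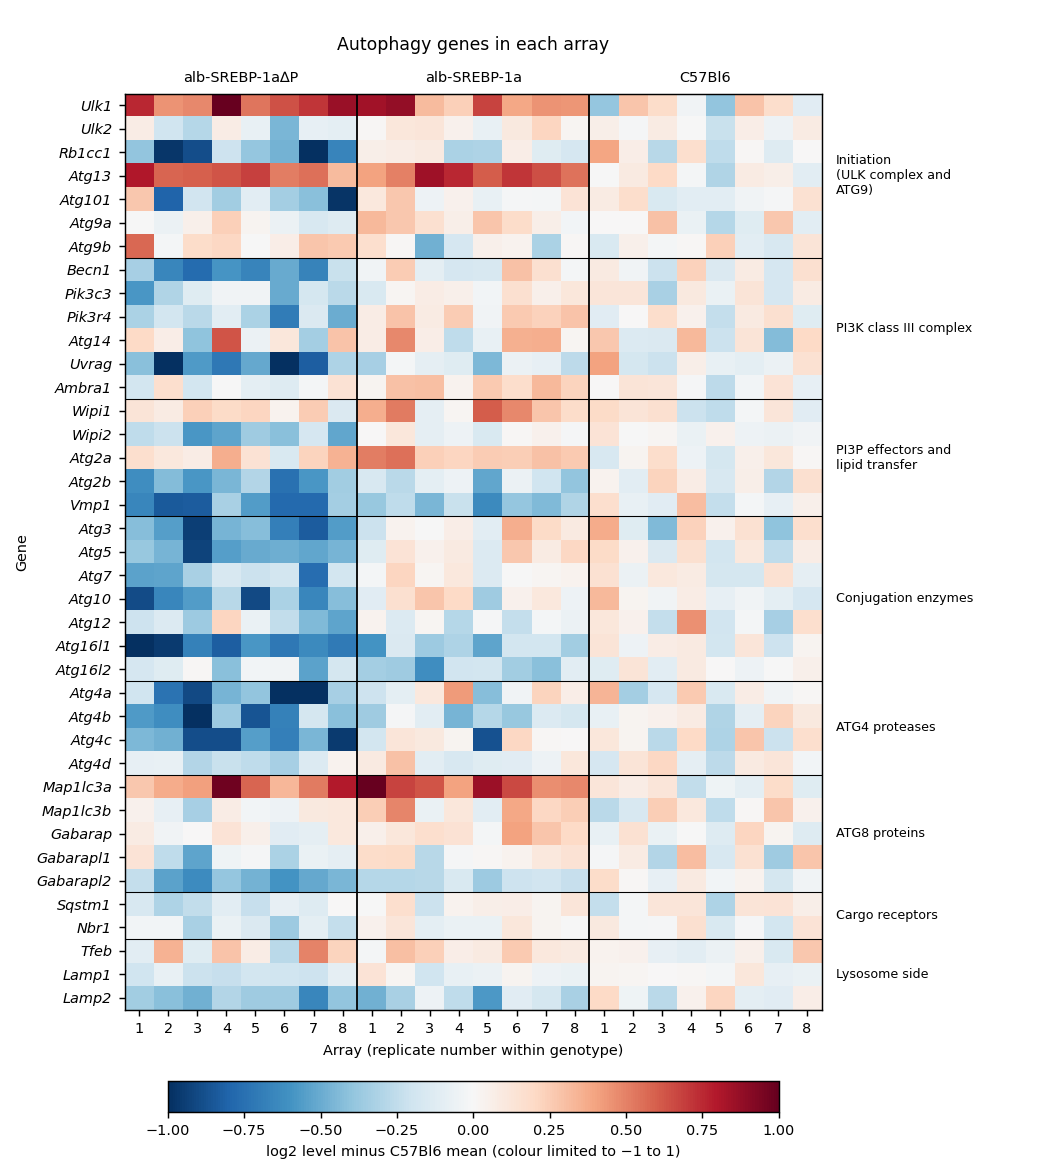
Heat map of the 39 autophagy genes (rows, grouped by role) in the 24 arrays (columns, 8 per genotype), coloured by log2 level minus the C57Bl6 mean of the gene, with colours limited to −1 and 1. Ulk1, Atg13 and Map1lc3a are red through both transgenic genotypes, while Becn1, Atg3, Atg5 and Atg10 are blue through the 8 alb-SREBP-1a∆P arrays. Single arrays of the other genotypes are blue as well, such as C57Bl6 replicates 3 and 7 for Atg3.

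The initiating kinase complex held 2 genes that rose in both transgenic lines and 2 that fell in alb-SREBP-1a∆P. Ulk1 encodes the serine/threonine kinase that starts autophagosome formation, and Atg13 the adaptor that joins it to its scaffold. Ulk1 lay at 8.63, 8.85 and 9.36 in alb-SREBP-1a∆P arrays (lowest, median and highest log2 level), at 8.42, 8.63 and 9.06 in alb-SREBP-1a arrays and at 7.78, 8.25 and 8.46 in C57Bl6 arrays. All 8 alb-SREBP-1a∆P arrays and 7 of the 8 alb-SREBP-1a arrays exceeded every C57Bl6 array. Ulk1 rose by 0.70 ± 0.13 in alb-SREBP-1a∆P (log2 fold change ± SE, limma adjusted p = 0.000319) and by 0.53 ± 0.13 in alb-SREBP-1a (adjusted p = 0.0107).

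Atg13 moved likewise. Its levels were 9.20, 9.47 and 9.67 in alb-SREBP-1a∆P, 9.28, 9.50 and 9.73 in alb-SREBP-1a and 8.57, 8.91 and 9.08 in C57Bl6. The arrays of both transgenic lines lay wholly above those of C57Bl6 and overlapped each other. The rise was 0.58 ± 0.08 in alb-SREBP-1a∆P (limma adjusted p = 3.03e-05) and 0.63 ± 0.08 in alb-SREBP-1a (adjusted p = 8.7e-05). Between the lines the difference was −0.04 ± 0.08 for Atg13 and 0.17 ± 0.12 for Ulk1, and neither passed (adjusted p = 0.673 and 0.247).

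The 250 bases before the RefSeq start sites of these genes (GRCm38.p6, both on the minus strand, chr2:91710593-91710842 and chr5:110810082-110810331) are shown because they are the initiation genes that rose in both lines. Neither stretch holds the letters CACGTG, an E-box that TFEB and SREBPs are known to bind, on either strand.
Atg13: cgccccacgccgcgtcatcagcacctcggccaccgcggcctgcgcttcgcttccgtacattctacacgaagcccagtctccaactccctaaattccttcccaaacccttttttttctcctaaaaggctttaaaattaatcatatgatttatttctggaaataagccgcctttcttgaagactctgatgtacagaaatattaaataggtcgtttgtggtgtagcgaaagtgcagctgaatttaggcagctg
Ulk1: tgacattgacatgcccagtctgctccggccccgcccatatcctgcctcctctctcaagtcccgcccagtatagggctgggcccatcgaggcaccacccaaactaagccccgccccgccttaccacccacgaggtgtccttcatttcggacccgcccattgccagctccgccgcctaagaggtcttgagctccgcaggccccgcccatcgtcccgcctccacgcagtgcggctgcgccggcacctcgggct

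Other parts of the complex went the opposite way. Rb1cc1, which encodes the scaffold FIP200, was 5.90, 6.59 and 6.94 in alb-SREBP-1a∆P, 6.84, 7.12 and 7.25 in alb-SREBP-1a and 6.88, 7.17 and 7.55 in C57Bl6. Only the top of the alb-SREBP-1a∆P range reached the bottom of the others, with 7 of 8 arrays below all of alb-SREBP-1a and below all of C57Bl6. Rb1cc1 fell by 0.66 ± 0.14 against C57Bl6 (limma adjusted p = 0.00141) and by 0.58 ± 0.14 against alb-SREBP-1a (adjusted p = 0.00344). Atg101, which stabilises ATG13, fell by 0.36 ± 0.14 and 0.41 ± 0.14 in the same comparisons (limma adjusted p = 0.0419 and 0.0253), with 1 alb-SREBP-1a∆P array above every C57Bl6 array. Neither call held under all of quantile normalization, centring and cyclic loess, with values as small as −0.14 and −0.17. Atg101 lies in decile 8 of brightness, where the median against C57Bl6 was −0.28 and the lower quartile −0.48.

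Ulk2, the closest relative of Ulk1, passed in no comparison, with log2 fold changes of −0.13 ± 0.08 in alb-SREBP-1a∆P and 0.07 ± 0.06 in alb-SREBP-1a against C57Bl6. Atg9a, the membrane protein of ATG9 vesicles, was at −0.01 ± 0.09 and 0.16 ± 0.09. Its paralogue Atg9b had levels of 5.91, 6.12 and 6.50 in alb-SREBP-1a∆P, 5.45, 5.94 and 6.09 in alb-SREBP-1a and 5.76, 5.92 and 6.17 in C57Bl6. These ranges overlap, and 5 alb-SREBP-1a∆P arrays lay above all of alb-SREBP-1a. Atg9b was the only gene of the 39 that rose against alb-SREBP-1a, by 0.28 ± 0.10 (limma adjusted p = 0.0391). The call was lost after centring and without alb-SREBP-1a∆P replicate 4. Atg9b lies in decile 6 of brightness, where 26.1% of genes rose in this comparison. The median of that decile was 0.12 and its upper quartile 0.28.

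Of the 6 genes of the class III PI3 kinase complex, 4 fell in alb-SREBP-1a∆P against C57Bl6 and 5 against alb-SREBP-1a. In alb-SREBP-1a against C57Bl6 0 passed. All but Atg14 lie in deciles 8 and 9 of brightness. In those deciles 53.5% and 59.3% of genes fell in alb-SREBP-1a∆P against C57Bl6, and 60.9% and 71.2% against alb-SREBP-1a. Becn1, for the Beclin 1 core of the complex, lay at 6.95, 7.10 and 7.50 in alb-SREBP-1a∆P, 7.55, 7.69 and 8.02 in alb-SREBP-1a and 7.51, 7.75 and 7.95 in C57Bl6. The alb-SREBP-1a∆P arrays did not overlap with those of either other genotype, whereas alb-SREBP-1a and C57Bl6 covered nearly the same range. Becn1 fell by 0.55 ± 0.09 against C57Bl6 (limma adjusted p = 0.000176) and by 0.58 ± 0.10 against alb-SREBP-1a (adjusted p = 0.000396), and its difference between alb-SREBP-1a and C57Bl6 was 0.03 ± 0.09.

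Pik3r4, the regulatory subunit VPS15, was likewise lower. Its levels were 6.53, 6.93 and 7.12 in alb-SREBP-1a∆P, 7.19, 7.46 and 7.51 in alb-SREBP-1a and 6.98, 7.25 and 7.40 in C57Bl6. All 8 alb-SREBP-1a∆P arrays lay below all of alb-SREBP-1a, and 5 below all of C57Bl6. It fell by 0.50 ± 0.09 against alb-SREBP-1a (limma adjusted p = 0.000569) and by 0.32 ± 0.09 against C57Bl6 (adjusted p = 0.00977). Pik3c3, the catalytic subunit VPS34, fell by 0.29 ± 0.09 and 0.25 ± 0.10 (adjusted p = 0.0136 and 0.0417). Against C57Bl6 neither gene kept its call under all of quantile normalization, centring and cyclic loess. The smallest falls there were 0.10 for Pik3r4 and 0.07 for Pik3c3.

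The Beclin 1 partner genes did not move as a block. Uvrag, a subunit of the form of the complex that acts late in the pathway, fell by 0.69 ± 0.12 in alb-SREBP-1a∆P against C57Bl6, with all 8 arrays below, and by 0.51 ± 0.12 against alb-SREBP-1a (limma adjusted p = 0.000296 and 0.00284). Its call against alb-SREBP-1a did not hold under all of the scalings named above, with a value as small as −0.28. Atg14, the subunit of the form that starts autophagosomes, was at 0.06 ± 0.15 and −0.07 ± 0.14. Ambra1, which regulates Beclin 1, was 7.37, 7.50 and 7.73 in alb-SREBP-1a∆P, 7.58, 7.80 and 7.88 in alb-SREBP-1a and 7.30, 7.55 and 7.70 in C57Bl6. Its only call was a fall of 0.24 ± 0.07 in the comparison of the lines (limma adjusted p = 0.0162), where the value was 0.03 with cyclic loess, and its value in alb-SREBP-1a against C57Bl6, 0.20 ± 0.07, missed the threshold (adjusted p = 0.0773).

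**Figure D2:**
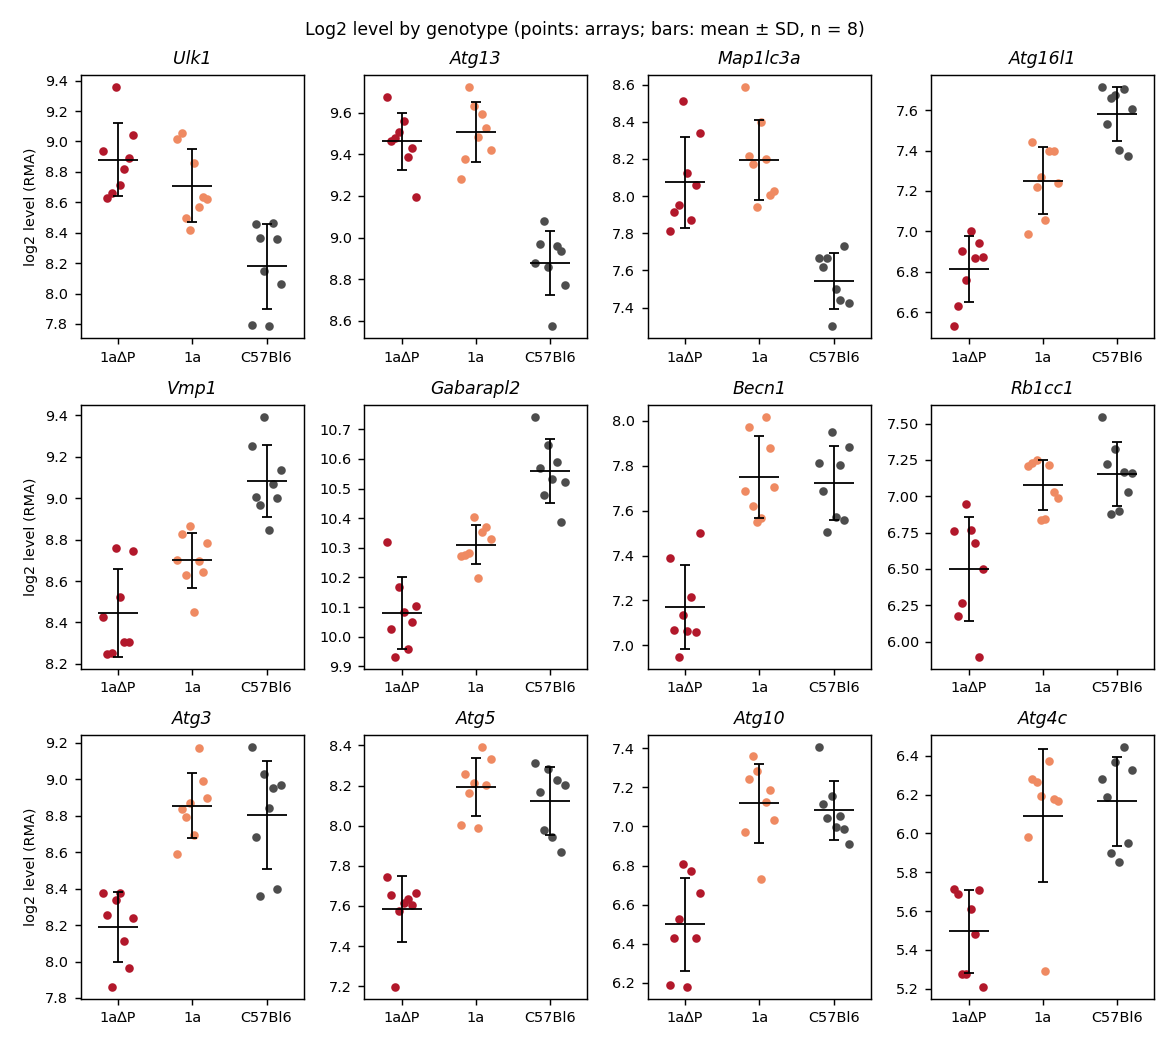
Log2 levels of 12 autophagy genes on each array, in alb-SREBP-1a∆P (1a∆P), alb-SREBP-1a (1a) and C57Bl6, with bars for the mean ± SD of 8 arrays and a separate vertical scale for each gene. Ulk1, Atg13 and Map1lc3a lie higher in both transgenic lines, and Becn1, Rb1cc1, Atg3, Atg5, Atg10 and Atg4c are low in alb-SREBP-1a∆P. Atg16l1, Vmp1 and Gabarapl2 step up from alb-SREBP-1a∆P through alb-SREBP-1a to C57Bl6.

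Genes that act on PI3P-marked membrane were divided, and the pairs of paralogues among them were not alike. Wipi2 encodes the PI3P reader that recruits ATG16L1, and fell by 0.38 ± 0.07 in alb-SREBP-1a∆P against C57Bl6 and 0.36 ± 0.07 against alb-SREBP-1a (limma adjusted p = 0.000541 and 0.00139), with all 8 arrays below in each. Neither call of Wipi2 held under all of quantile normalization, centring and cyclic loess, with values as small as −0.11 and −0.08. Its paralogue Wipi1 had 6.85, 7.16 and 7.25 in alb-SREBP-1a∆P, 6.91, 7.32 and 7.60 in alb-SREBP-1a and 6.74, 7.05 and 7.19 in C57Bl6. These ranges overlap and Wipi1 passed in no comparison. Its largest value was 0.30 ± 0.11 in alb-SREBP-1a against C57Bl6 (adjusted p = 0.0848).

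ATG2 proteins transfer lipid into the growing membrane. Atg2a was 7.31, 7.61 and 7.83 in alb-SREBP-1a∆P, 7.68, 7.72 and 8.01 in alb-SREBP-1a and 7.29, 7.48 and 7.64 in C57Bl6. Every alb-SREBP-1a array exceeded every C57Bl6 array, and Atg2a rose there by 0.32 ± 0.07 (limma adjusted p = 0.00756). In alb-SREBP-1a∆P its value was 0.16 ± 0.08 against C57Bl6 (adjusted p = 0.114). Atg2b fell in alb-SREBP-1a∆P by 0.51 ± 0.09 against C57Bl6 and by 0.29 ± 0.09 against alb-SREBP-1a (limma adjusted p = 0.000215 and 0.014), and the dimmer of its probe sets gave falls of 0.52 ± 0.11 and 0.53 ± 0.11. For the brighter probe set the call against alb-SREBP-1a did not hold under all of the scalings named above, with a value as small as −0.02.

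Vmp1, a scramblase of the endoplasmic reticulum needed for autophagosome formation, was lower in both transgenic lines. It lay at 8.25, 8.37 and 8.76 in alb-SREBP-1a∆P, 8.45, 8.70 and 8.86 in alb-SREBP-1a and 8.85, 9.04 and 9.39 in C57Bl6. All 8 alb-SREBP-1a∆P arrays and 7 alb-SREBP-1a arrays lay below every C57Bl6 array. Vmp1 fell by 0.64 ± 0.10 in alb-SREBP-1a∆P (limma adjusted p = 8.67e-05) and by 0.38 ± 0.08 in alb-SREBP-1a (adjusted p = 0.00521). Its further fall between the lines, 0.25 ± 0.09 (adjusted p = 0.0367), was no longer called after quantile normalization or once alb-SREBP-1a replicates 1 and 2 were left out, and its sign changed with cyclic loess.

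The conjugation enzymes, which build the ATG12-ATG5-ATG16L1 complex and attach ATG8 proteins to lipid, were mostly lower in alb-SREBP-1a∆P. Of 7 genes, 5 fell against C57Bl6 and 5 against alb-SREBP-1a, the same 5 in each: Atg3, Atg5, Atg7, Atg10 and Atg16l1. Of the 7, all but Atg16l2 lie in deciles 8 and 9 of brightness. There 53.5% and 59.3% of all genes fell against C57Bl6, and 60.9% and 71.2% against alb-SREBP-1a. Atg5, the target of ATG12 conjugation, was 7.20, 7.62 and 7.75 in alb-SREBP-1a∆P, 7.99, 8.21 and 8.39 in alb-SREBP-1a and 7.87, 8.19 and 8.31 in C57Bl6. The alb-SREBP-1a∆P arrays did not overlap with those of either other genotype. Atg5 fell by 0.54 ± 0.09 against C57Bl6 (limma adjusted p = 0.000153) and by 0.61 ± 0.08 against alb-SREBP-1a (adjusted p = 0.000149).

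The E2-like enzymes were lower as well. Atg3, which transfers ATG8 proteins to phosphatidylethanolamine, was 7.86, 8.25 and 8.37 in alb-SREBP-1a∆P, 8.59, 8.85 and 9.17 in alb-SREBP-1a and 8.36, 8.90 and 9.18 in C57Bl6. The alb-SREBP-1a∆P arrays lay wholly below those of alb-SREBP-1a and just overlapped with C57Bl6, with falls of 0.66 ± 0.10 and 0.61 ± 0.12 (limma adjusted p = 0.000182 and 0.000743). Atg10, the E2-like enzyme for ATG12, was 6.18, 6.48 and 6.81 in alb-SREBP-1a∆P, 6.73, 7.16 and 7.36 in alb-SREBP-1a and 6.91, 7.05 and 7.41 in C57Bl6. All 8 of its alb-SREBP-1a∆P arrays were below the C57Bl6 range, and it fell by 0.59 ± 0.10 there and by 0.62 ± 0.11 against alb-SREBP-1a (adjusted p = 0.000238 and 0.000631).

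Atg7, the E1-like enzyme that activates both ubiquitin-like systems, fell by 0.36 ± 0.10 against C57Bl6 and 0.39 ± 0.09 against alb-SREBP-1a (limma adjusted p = 0.0058 and 0.00338). Neither call of Atg7 held under all of quantile normalization, centring and cyclic loess, with values as small as −0.10 in each. None of Atg3, Atg5, Atg7 and Atg10 passed in alb-SREBP-1a against C57Bl6, where their log2 fold changes were 0.05 ± 0.12, 0.07 ± 0.08, 0.03 ± 0.07 and 0.03 ± 0.09. Atg12, the ubiquitin-like protein itself, passed in no comparison and was at −0.22 ± 0.12 in alb-SREBP-1a∆P against C57Bl6 (adjusted p = 0.139).

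Atg16l1, which fixes the complex to the membrane, had the smallest p of the 39 genes in alb-SREBP-1a∆P against C57Bl6. It was 6.53, 6.87 and 7.00 in alb-SREBP-1a∆P, 6.99, 7.25 and 7.44 in alb-SREBP-1a and 7.37, 7.63 and 7.71 in C57Bl6. The genotypes lay in 3 steps, with all 8 alb-SREBP-1a∆P arrays and 5 alb-SREBP-1a arrays below every C57Bl6 array. Atg16l1 fell by 0.77 ± 0.08 in alb-SREBP-1a∆P and by 0.33 ± 0.08 in alb-SREBP-1a against C57Bl6, and by 0.44 ± 0.09 between the lines (limma adjusted p = 2.46e-06, 0.0126 and 0.0013). The call between the lines was lost with cyclic loess, where the value was −0.20. Its paralogue Atg16l2 was 6.13, 6.52 and 6.67 in alb-SREBP-1a∆P, 6.04, 6.32 and 6.56 in alb-SREBP-1a and 6.54, 6.67 and 6.79 in C57Bl6. In contrast to Atg16l1, its only call was in alb-SREBP-1a against C57Bl6, a fall of 0.32 ± 0.07 (adjusted p = 0.00867), with −0.18 ± 0.08 in alb-SREBP-1a∆P (adjusted p = 0.0799).

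RefSeq promoters were matched for 33 of the 39 genes, and CACGTG lay within 250 bases before the start site in 4 of them, against 6.86% of 27025 genes. Of these 4, Atg3, Atg5 and Atg7 belong to the conjugation enzymes, which is why their promoters are shown (GRCm38.p6, all on the plus strand, chr16:45158579-45158828, chr10:44268089-44268338 and chr6:114670846-114671095). Capitals mark CACGTG, which reads the same on both strands, at −94 and −71 in Atg3, −14 in Atg5 and −132 in Atg7, counted from the start site to the first base of the match.
Atg3: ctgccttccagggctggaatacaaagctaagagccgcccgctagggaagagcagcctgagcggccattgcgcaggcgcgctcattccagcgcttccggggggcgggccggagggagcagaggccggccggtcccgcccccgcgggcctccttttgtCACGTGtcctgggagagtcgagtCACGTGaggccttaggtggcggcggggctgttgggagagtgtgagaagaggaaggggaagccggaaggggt
Atg5: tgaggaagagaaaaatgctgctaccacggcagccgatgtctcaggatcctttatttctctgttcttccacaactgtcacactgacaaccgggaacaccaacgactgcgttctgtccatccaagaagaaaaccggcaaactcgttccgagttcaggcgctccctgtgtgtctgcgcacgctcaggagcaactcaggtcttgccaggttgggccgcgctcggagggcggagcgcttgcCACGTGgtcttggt
Atg7: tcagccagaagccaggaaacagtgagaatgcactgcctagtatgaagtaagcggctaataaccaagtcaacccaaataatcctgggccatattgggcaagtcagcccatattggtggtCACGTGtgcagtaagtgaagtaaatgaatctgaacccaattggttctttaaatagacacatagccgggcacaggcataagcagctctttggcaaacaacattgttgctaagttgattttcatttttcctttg

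A match is only a run of letters and says nothing of binding. AGGTCA, a core of nuclear receptor sites, was found in the same window on either strand in 6 of the 33 (Ulk2, Pik3r4, Vmp1, Atg4a, Gabarapl2 and Nbr1), against 15.8% of genes.

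ATG4 proteases trim ATG8 proteins before conjugation and release them from membrane. Of 4 genes, 3 fell in alb-SREBP-1a∆P against each other genotype and 0 passed in alb-SREBP-1a. They lie in deciles 6, 7 and 9, where 13.9%, 33.3% and 59.3% of genes fell in alb-SREBP-1a∆P against C57Bl6. Against alb-SREBP-1a these shares were 13.1%, 34.9% and 71.2%. In alb-SREBP-1a against C57Bl6 4.4% of all genes fell and 6.26% rose. Atg4c was 5.21, 5.55 and 5.71 in alb-SREBP-1a∆P, 5.29, 6.19 and 6.38 in alb-SREBP-1a and 5.85, 6.24 and 6.45 in C57Bl6. The alb-SREBP-1a∆P arrays lay wholly below C57Bl6, but alb-SREBP-1a replicate 5, at 5.29, fell into their range. Atg4c fell by 0.67 ± 0.11 against C57Bl6 and by 0.60 ± 0.14 against alb-SREBP-1a (limma adjusted p = 0.000152 and 0.00311).

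Atg4b, the protease with the broadest activity, was 5.77, 6.24 and 6.66 in alb-SREBP-1a∆P, 6.37, 6.60 and 6.82 in alb-SREBP-1a and 6.53, 6.86 and 7.05 in C57Bl6. It fell by 0.59 ± 0.11 in alb-SREBP-1a∆P against C57Bl6 (limma adjusted p = 0.000516), and its value in alb-SREBP-1a, −0.24 ± 0.08, did not pass (adjusted p = 0.0773). Atg4a fell by 0.66 ± 0.15 against C57Bl6 and 0.67 ± 0.15 against alb-SREBP-1a (adjusted p = 0.00153 and 0.00277). Its brighter probe set stands in ID order among probe sets for genes of chromosome 3, whereas the gene lies on the X chromosome, so signal from a near-identical copy cannot be told apart. The dimmer probe set, among X chromosome neighbours, gave falls of 0.63 ± 0.14 and 0.60 ± 0.14. Atg4d was at −0.17 ± 0.08 in alb-SREBP-1a∆P against C57Bl6 (adjusted p = 0.0979).

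**Figure D3:**
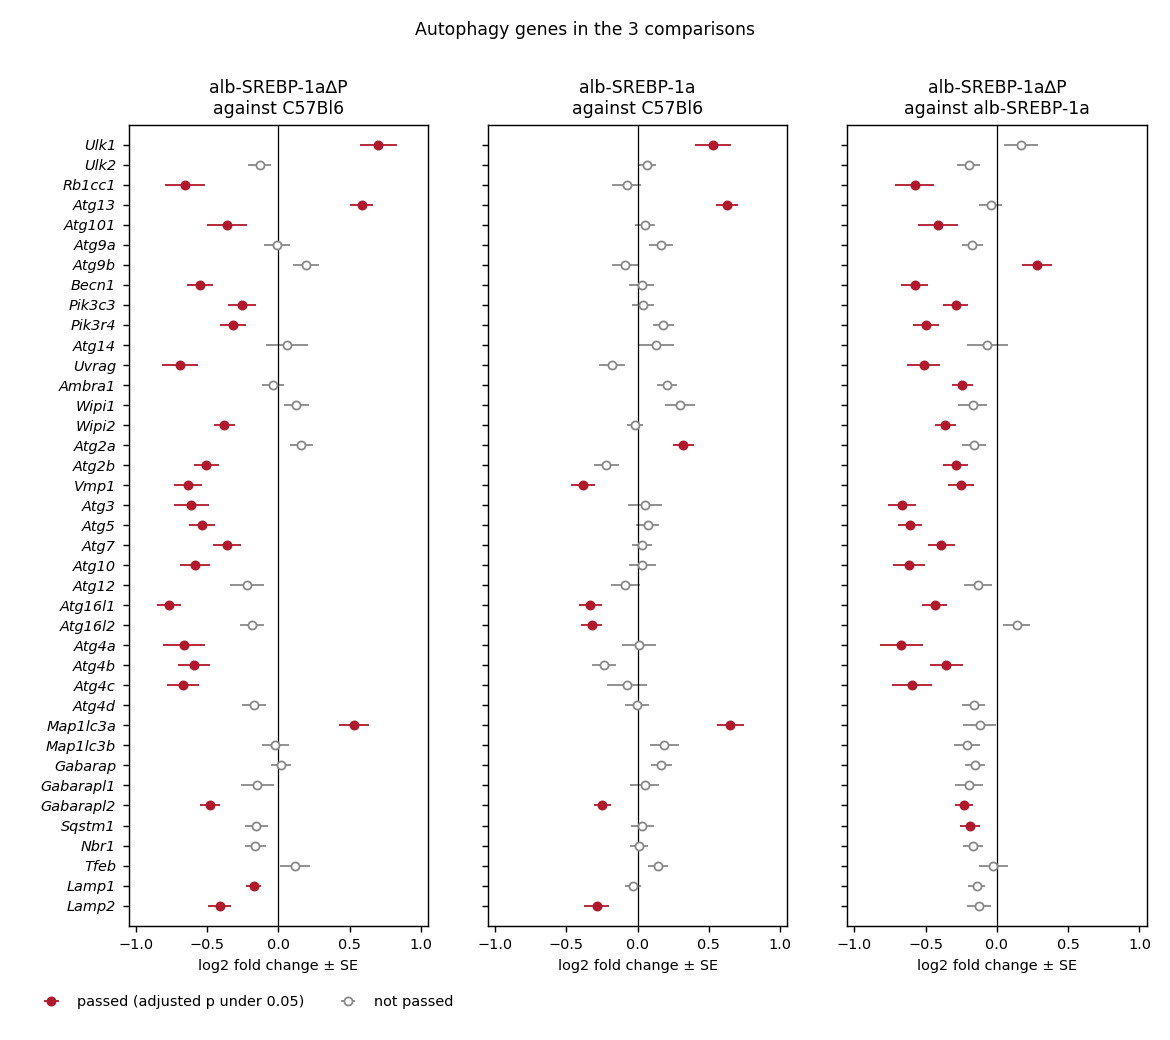
Log2 fold change ± SE of each of the 39 autophagy genes in the 3 comparisons (8 against 8 arrays), with filled points for genes that passed at a limma adjusted p under 0.05 and open points for the rest. The left and right panels each hold 20 filled points below 0, and the middle panel holds 4 above 0 and 5 below.

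Among the ATG8 proteins, the ubiquitin-like coat of the autophagosome, the members moved apart. Map1lc3a, one of the LC3 genes, was 7.81, 8.01 and 8.51 in alb-SREBP-1a∆P, 7.94, 8.19 and 8.59 in alb-SREBP-1a and 7.30, 7.56 and 7.73 in C57Bl6. Every array of both transgenic lines exceeded every C57Bl6 array. Map1lc3a rose by 0.53 ± 0.10 in alb-SREBP-1a∆P and by 0.65 ± 0.09 in alb-SREBP-1a (limma adjusted p = 0.000586 and 0.000286), and the lines differed by −0.12 ± 0.12 (adjusted p = 0.401).

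Gabarapl2 went the other way, at 9.93, 10.07 and 10.32 in alb-SREBP-1a∆P, 10.20, 10.31 and 10.40 in alb-SREBP-1a and 10.39, 10.55 and 10.74 in C57Bl6. All 8 alb-SREBP-1a∆P arrays and 7 alb-SREBP-1a arrays lay below every C57Bl6 array. It fell by 0.48 ± 0.07 in alb-SREBP-1a∆P and by 0.25 ± 0.06 in alb-SREBP-1a against C57Bl6, and by 0.23 ± 0.07 between the lines (limma adjusted p = 5.35e-05, 0.0115 and 0.0099). The call between the lines was lost after quantile normalization and with cyclic loess, at −0.10 and −0.03. This probe set stands among those for genes of chromosome 5, whereas Gabarapl2 lies on chromosome 8. The probe set with chromosome 8 neighbours averaged 4.35, 4.75 and 4.68 in the 3 genotypes and passed in no comparison, with values of −0.33 ± 0.18, 0.07 ± 0.18 and −0.40 ± 0.21. The fall of Gabarapl2 thus rests on a probe set for which a near-identical copy cannot be told apart.

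The other ATG8 genes passed in no comparison. Map1lc3b, the LC3 form most used as an autophagosome marker, was at −0.02 ± 0.09 in alb-SREBP-1a∆P and 0.19 ± 0.10 in alb-SREBP-1a against C57Bl6. Its brighter probe set stands among chromosome 14 neighbours and the gene lies on chromosome 8, and the probe set with chromosome 8 neighbours gave 0.06 ± 0.10 and 0.24 ± 0.10. Gabarap was at 0.02 ± 0.07 and 0.17 ± 0.07, and Gabarapl1 at −0.15 ± 0.12 and 0.05 ± 0.10.

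The cargo receptors Sqstm1, for p62, and Nbr1 link ubiquitinated cargo to ATG8 proteins. Neither passed against C57Bl6 in either line. Against alb-SREBP-1a, Sqstm1 fell by 0.19 ± 0.07 in alb-SREBP-1a∆P (limma adjusted p = 0.034), and Nbr1 was at −0.17 ± 0.07 there (adjusted p = 0.0554). For such bright probe sets this is near the median of all genes in decile 10, −0.23.

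On the lysosomal side, Lamp2, a membrane glycoprotein needed for fusion and for chaperone-mediated autophagy, was lower in both lines. It was 11.83, 12.11 and 12.19 in alb-SREBP-1a∆P, 11.91, 12.20 and 12.44 in alb-SREBP-1a and 12.22, 12.49 and 12.70 in C57Bl6. Every alb-SREBP-1a∆P array and 4 of the alb-SREBP-1a arrays were below the whole C57Bl6 range. Lamp2 fell by 0.41 ± 0.08 and 0.29 ± 0.09 (limma adjusted p = 0.000559 and 0.0457). The call in alb-SREBP-1a was lost without alb-SREBP-1a replicates 1 and 2, after centring and with cyclic loess. Tfeb itself passed in no comparison, at 0.12 ± 0.11 and 0.14 ± 0.07 in the lines against C57Bl6.

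Lamp1, the other abundant lysosomal membrane glycoprotein, fell by 0.17 ± 0.06 in alb-SREBP-1a∆P against C57Bl6 (limma adjusted p = 0.0165), a call lost after quantile normalization and with cyclic loess. Its promoter (GRCm38.p6, plus strand, chr8:13158911-13159160) is shown for its 4 matches to CACGTG, in capitals, which begin at −61, −45, −28 and −15.
Lamp1: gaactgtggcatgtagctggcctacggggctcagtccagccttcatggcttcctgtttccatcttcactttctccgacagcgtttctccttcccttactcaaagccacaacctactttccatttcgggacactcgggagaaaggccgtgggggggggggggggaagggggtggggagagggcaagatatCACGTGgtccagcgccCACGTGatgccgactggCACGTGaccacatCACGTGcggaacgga

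Because alb-SREBP-1a∆P arrays are lower for bright probe sets in general, each gene can be read against genes of its own brightness. In alb-SREBP-1a∆P against C57Bl6, the median log2 fold change of all genes was 0.09 in decile 6, −0.09 in decile 7, −0.28 in decile 8, −0.32 in decile 9 and −0.27 in decile 10. In deciles 8 and 9, the lower quartiles were −0.48 and −0.52, and falls such as those of Atg7 and Wipi2 lie inside the quartiles while those of Atg16l1, Uvrag, Rb1cc1, Atg10, Atg3, Atg5 and Becn1 lie below them. Ulk1, Atg13 and Map1lc3a lie far above the upper quartiles of their deciles, −0.09, −0.06 and −0.09. In alb-SREBP-1a against C57Bl6 the medians of deciles 6 to 10 lay between −0.04 and 0.02.

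**Figure D4:**
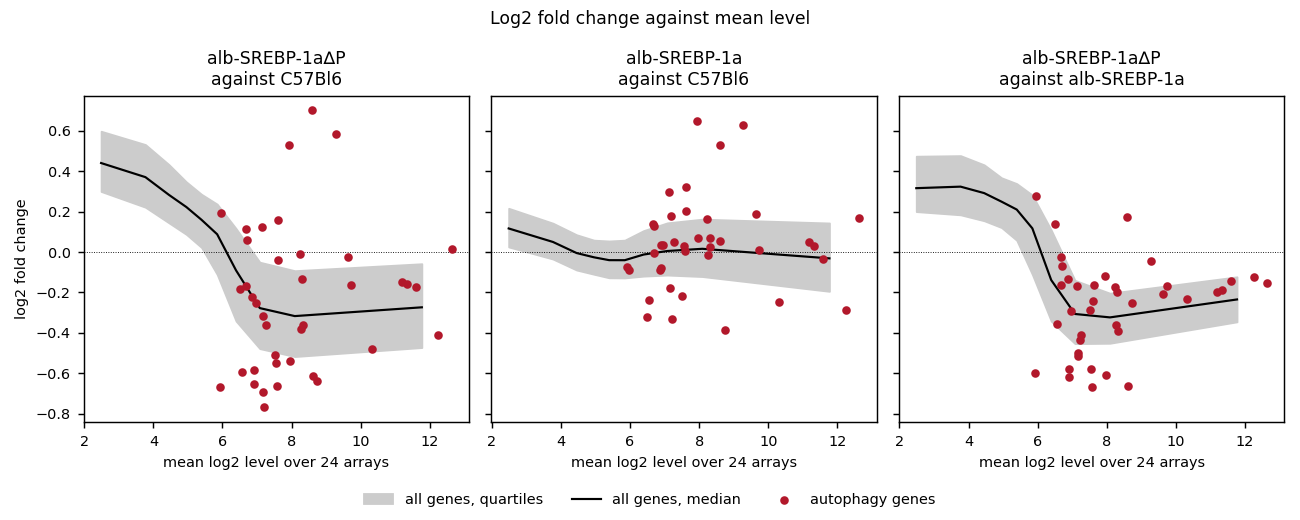
Log2 fold change of the 39 autophagy genes (red points) against their mean log2 level over 24 arrays in the 3 comparisons, with the median (line) and quartiles (grey band) of all genes in each decile of brightness, placed at the middle of the decile's range of levels. In the left and right panels the median of all genes passes below 0 towards bright probe sets, and in the middle panel it stays near 0.

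The calls were therefore followed under 3 further scalings of the arrays: quantile normalization, centring on the median and cyclic loess, which removes a difference that follows brightness. The rises of Ulk1, Atg13 and Map1lc3a against C57Bl6 passed in both lines under every scaling. Of the 20 genes that fell against C57Bl6 in alb-SREBP-1a∆P, 14 kept the call under every scaling. Of the 20 that fell against alb-SREBP-1a, 8 kept it. The share of all genes that kept a call under every scaling was not counted. With cyclic loess alone 24.8% and 16.4% of genes in deciles 6 to 10 were lower in these comparisons. Both comparisons kept a shared set of 7 genes, Rb1cc1, Becn1, Atg3, Atg5, Atg10, Atg4a and Atg4c. Vmp1, Atg16l1 and Gabarapl2 fell in both lines against C57Bl6 under every scaling. With cyclic loess the falls of Becn1, Atg3 and Atg5 against C57Bl6 were 0.30, 0.35 and 0.27, against 0.55, 0.61 and 0.54 on the deposited values.

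**Figure D5:**
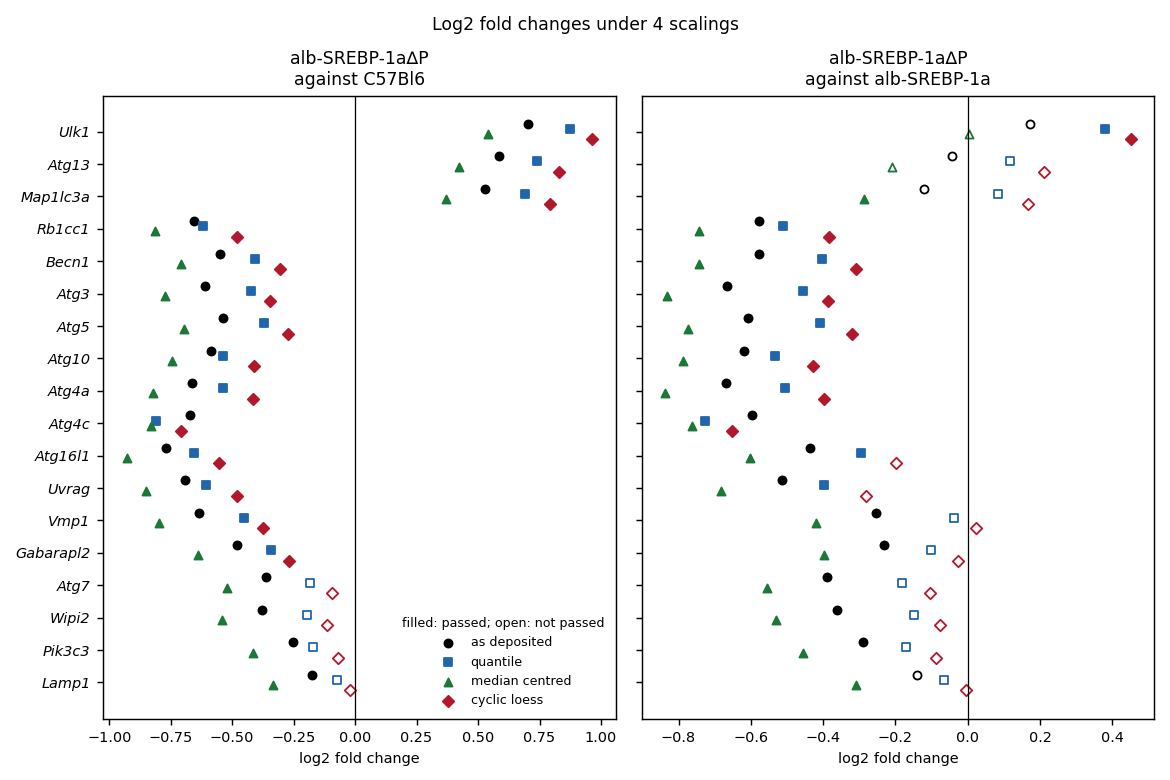
Log2 fold changes of 18 autophagy genes in alb-SREBP-1a∆P against C57Bl6 (left) and against alb-SREBP-1a (right), on the deposited values and under 3 other scalings, with filled symbols for an adjusted p under 0.05. The order of the symbols is alike down each panel, with centred values leftmost and cyclic loess values rightmost for most genes, and Atg7, Wipi2, Pik3c3 and Lamp1 have open symbols for quantile normalization and cyclic loess in the left panel.

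The genes around the core pathway were described by 8 lists. Their counts against C57Bl6 in alb-SREBP-1a∆P stand beside 25.9% of all genes lower and 25.2% higher, and 43.3% and 10.7% in deciles 6 to 10, or 24.8% and 16.8% in those deciles with cyclic loess. In alb-SREBP-1a against C57Bl6 the shares were 4.4% lower and 6.26% higher of all genes, and 7.01% and 9.5% in deciles 6 to 10. The list of the mTORC1 kinase and its regulators had 16 of 28 genes lower and 0 higher in alb-SREBP-1a∆P against C57Bl6. It had 2 lower and 2 higher in alb-SREBP-1a. With cyclic loess 4 were lower and 4 higher in alb-SREBP-1a∆P. Rheb, the GTPase that activates mTORC1, fell by 1.08 ± 0.10 in alb-SREBP-1a∆P and by 0.51 ± 0.11 in alb-SREBP-1a (limma adjusted p = 7.18e-07 and 0.00478). Rragc, a Rag GTPase that recruits mTORC1 to lysosomes, fell by 0.69 ± 0.12 in alb-SREBP-1a∆P. Tsc2, which turns Rheb off, rose by 0.33 ± 0.07 in alb-SREBP-1a.

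Of 14 other genes of the PI3 kinase complex, PI3P and the isolation membrane, 7 fell in alb-SREBP-1a∆P and 3 in alb-SREBP-1a against C57Bl6, with 0 higher in either. Nrbf2, an ATG14 partner, fell by 0.70 ± 0.07 in alb-SREBP-1a∆P and by 0.34 ± 0.06 in alb-SREBP-1a (limma adjusted p = 7.52e-07 and 0.00106). Ei24, a protein of the endoplasmic reticulum required for autophagy, fell by 0.79 ± 0.09 and 0.39 ± 0.07. Among 17 selective receptors and mitophagy genes, 8 fell in alb-SREBP-1a∆P, among them the kinase Tbk1 by 0.64 ± 0.09 and the receptor Tax1bp1 by 0.50 ± 0.08, while 2 rose in alb-SREBP-1a. Of 16 genes for tethering and fusion, 11 fell in alb-SREBP-1a∆P, with Vamp7 at −0.66 ± 0.10, and 1 fell in alb-SREBP-1a. With cyclic loess, 5, 6 and 4 genes of these lists were lower and 1, 2 and 1 higher in alb-SREBP-1a∆P, and the median of the receptors turned from −0.20 to 0.03.

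The lysosomal lists are read against the same shares of genes in deciles 6 to 10, 43.3% lower and 10.7% higher, in alb-SREBP-1a∆P against C57Bl6. Of 36 hydrolases and cofactors 23 fell and 0 rose, of 14 lysosomal membrane proteins 9 fell and 0 rose, and of 16 subunits of the vacuolar ATPase, the pump that acidifies the lysosome, 13 fell and 0 rose, with a median of −0.58. With cyclic loess these counts were 11 lower and 5 higher, 4 lower and 3 higher, and 10 lower and 1 higher, with the vacuolar ATPase median at −0.33. In alb-SREBP-1a these lists had 7, 1 and 5 genes lower and 4, 1 and 0 higher. In that comparison 7.01% of genes in deciles 6 to 10 were lower and 9.5% higher. The cysteine protease Ctsh fell by 0.89 ± 0.08 in alb-SREBP-1a∆P and by 0.39 ± 0.08 in alb-SREBP-1a (limma adjusted p = 3.41e-07 and 0.00362). Lipa, the lysosomal acid lipase that digests lipid delivered by autophagy, fell by 0.82 ± 0.10 and 0.41 ± 0.10. Arsa, arylsulfatase A, rose by 0.44 ± 0.07 in alb-SREBP-1a.

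Transcription factors known to act on autophagy genes were mixed, with 6 of 16 lower and 2 higher in alb-SREBP-1a∆P, and 1 lower and 4 higher in alb-SREBP-1a, against C57Bl6. With cyclic loess 2 were lower and 5 higher in alb-SREBP-1a∆P. Crtc2, a CREB coactivator of fasting genes, rose by 0.57 ± 0.08 in alb-SREBP-1a∆P and by 0.78 ± 0.07 in alb-SREBP-1a (limma adjusted p = 4.01e-05 and 3.07e-06). Foxo3 rose by 0.42 ± 0.09 and 0.32 ± 0.08. Zkscan3, a repressor of autophagy genes, fell by 0.72 ± 0.09 and 0.34 ± 0.10, and Nr1h4, for the bile acid receptor FXR, fell by 0.52 ± 0.10 in alb-SREBP-1a∆P.

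Markers of other cells moved with genotype beside these results. Of all genes 25.2% rose and 25.9% fell in alb-SREBP-1a∆P against C57Bl6, and 6.26% rose and 4.4% fell in alb-SREBP-1a. In deciles 6 to 10 10.7% and 9.5% rose in the lines. The mean level of 10 Kupffer cell and macrophage markers was 7.74 to 8.33 in alb-SREBP-1a∆P, 7.84 to 8.44 in alb-SREBP-1a and 7.36 to 7.83 in C57Bl6. Against C57Bl6 6 and 7 of the 10 were higher in the lines. In alb-SREBP-1a∆P 2 of the 10 were higher after centring and 8 with cyclic loess. The mean level of 5 neutrophil markers was 4.98 to 5.38 in alb-SREBP-1a∆P, 4.58 to 4.84 in alb-SREBP-1a and 4.59 to 4.96 in C57Bl6. All 5 rose in alb-SREBP-1a∆P against each other genotype. Under the other scalings 0 or 1 rose against C57Bl6 and 1 or 2 against alb-SREBP-1a. In decile 4, with levels of 4.73 to 5.18, 38.4% of genes rose against C57Bl6 and 38.7% against alb-SREBP-1a. The 6 hepatocyte markers averaged 12.93 to 13.12, 12.93 to 13.14 and 13.16 to 13.40 in that order of genotypes. Against C57Bl6 4 of the 6 were lower and 0 higher in alb-SREBP-1a∆P, and 2 lower and 0 higher in alb-SREBP-1a. With cyclic loess 2 were lower and 0 higher in each line. Of 6 sinusoidal endothelial markers 2 fell and 0 rose in alb-SREBP-1a∆P against C57Bl6, and of 6 stellate cell markers 2 fell and 0 rose. Of 6 lymphocyte markers 0 fell and 2 rose, and of 4 cholangiocyte markers 0 passed. With cyclic loess the endothelial and stellate cell lists each had 1 lower and 2 higher. The lymphocyte list then had 0 lower and 2 higher, and the cholangiocyte list 1 lower and 0 higher. The part of these cells in the autophagy values was not tested.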

How the data were processed

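The authors deposited log2 levels, which they obtained with RMA in Affymetrix Expression Console. Further RMA settings and the annotation build were not given in the sources used here. There were 35556 probe sets in 24 arrays without a missing value, from 150 ng of RNA per array. By GEO's platform annotation 21789 probe sets carry 1 symbol, 1621 several and 12146 none.

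The comparisons of 8 against 8 arrays were run in limma 3.58.1 (R 4.3.3) by lmFit and eBayes. Benjamini-Hochberg adjustment covered every probe set, and a gene was called at an adjusted p under 0.05. P-values refer to the spread between mice, and the number of arrays limits precision. The fit was checked on simulated data, which held no shift between genotypes that follows brightness, so the check does not cover that shift. Deciles of brightness were set by the mean over 24 arrays. Promoters of 250 bases come from RefSeq (GRCm38.p6), and chromosomes from its gene table. Python 3.11.15, pandas 2.3.3, numpy 2.4.6 and matplotlib 3.10.9 made tables and figures.

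The genes, lists and roles were chosen with earlier results of these data known. Every autophagy gene could be named, lowest, median and highest levels were given for the 6 genes with the smallest p in each direction and comparison and for Rb1cc1, and other lists were represented by genes among the 4 of smallest p. Alternatives were a fit of all 24 arrays, the replicate number fitted as a block, quantile normalization, median centring, cyclic loess, removal of dim probe sets, a variance trend, array weights, the brightest or the mean probe set of a gene, the methods' t-test at both thresholds, and the removal of arrays set apart.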

Additional observations from a re-analysis of the deposited data

Results flagged for a closer look

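In 6 of the 117 sets of 8 arrays formed by a gene and a genotype, the lowest array lay far from the rest by Dixon's criterion, which chance gives in about 1 of 20 sets. They were Atg5 in alb-SREBP-1a∆P replicate 3, at 7.20, Map1lc3b in the same array, at 9.24, Gabarapl1 and Sqstm1 in alb-SREBP-1a replicate 3, at 10.94 and 11.16, Atg4c in alb-SREBP-1a replicate 5, at 5.29, and Ulk2 in C57Bl6 replicate 5, at 8.11. None was alb-SREBP-1a∆P replicate 4, the array that stood apart on the first principal component.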

How the results depend on the processing

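Of 1560 values of single autophagy genes under other settings, 1401 kept their side of the threshold (50 of them changed sign without passing in either), 66 passed newly, 89 no longer passed and 4 reversed. With cyclic loess Atg9a and Ambra1 in alb-SREBP-1a∆P against C57Bl6 became higher, at 0.26 and 0.21, and Ambra1 and Vmp1 between the lines were at 0.031 and 0.023 without passing. In alb-SREBP-1a∆P against C57Bl6 the count higher was 5 after quantile normalization, 7 with cyclic loess and 1 by the methods' t-test at 1.5-fold, and the count lower was 9 by that t-test. In alb-SREBP-1a against C57Bl6 the count higher was 7 with array weights and 2 by the t-test at 1.5-fold, which called 0 lower. Between the lines (alb-SREBP-1a∆P over alb-SREBP-1a) the count lower was 10 after quantile normalization, 33 after centring, 8 with cyclic loess and 5 by the t-test at 1.5-fold, and the count higher was 0 with the replicate block, after centring, by the t-test at 1.5-fold and without alb-SREBP-1a∆P replicate 4. The cause was not tested. By construction, centring shifts all probe sets of an array alike, and cyclic loess removes a difference that follows brightness. Against C57Bl6 the median of all probe sets for alb-SREBP-1a∆P was 0.11 as deposited and −0.05 after centring, while 27.0% of probe sets were called higher and 20.2% lower as deposited, against 13.4% and 28.7% after centring.

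Replicate numbers did not pair the arrays, since deviations of same-numbered arrays correlated at −0.07 to 0.13, −0.12 to 0.28 and −0.09 to 0.16 in the 3 comparisons, with 1, 2 and 2 of 8 over 0.1. With the number as a block, 3 genes were higher and 17 lower in alb-SREBP-1a∆P against C57Bl6, 4 and 4 in alb-SREBP-1a against C57Bl6, and 0 and 17 between the lines. Without alb-SREBP-1a∆P replicate 4 the counts were 3 and 20 against C57Bl6 and 0 and 23 against alb-SREBP-1a, and without alb-SREBP-1a replicates 1 and 2 they were 4 and 4 in alb-SREBP-1a against C57Bl6 and 1 and 17 between the lines.

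With the block Atg101, Pik3c3 and Lamp1 no longer passed in alb-SREBP-1a∆P against C57Bl6, nor Lamp2 in alb-SREBP-1a, nor Atg101, Atg9b, Atg2b and Sqstm1 between the lines. Levels are RNA only and were not set beside protein, lipidated LC3 or autophagic flux. The scale of an array is relative, so a change in total RNA per cell is not seen.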
